A study of Rattus norvegicus with 6 samples.

Results

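The genes described here encode subunits of respiratory complexes II to V, the enzymes of the inner mitochondrial membrane that follow complex I. They were found by name among the genes listed in the count tables: Sdha, Sdhb, Sdhc, Sdhd and Cyc1, every name that starts with Uqcr, with Cox followed by 4 to 8 and a letter, with Atp5, or with Mt-co, Mt-cyb or Mt-atp. This gave 51 of 23139 genes. By complex, 4 belonged to complex II, 10 to complex III, 20 to complex IV and 17 to complex V. The nuclear genome encoded 45 of them and the mitochondrial genome 6. Subunits such as Atp5mc1, Cox7a2 and Cox8a had no gene under these names and were not analysed here, so counts and sums cover the listed genes alone. A total of 2 were named as pseudogenes and 4 were numbered copies of a gene that shares its name with another.

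The study asked how siponimod, a modulator of sphingosine-1-phosphate receptors used in multiple sclerosis, acts on microglia, the resident macrophages of the brain, under an inflammatory stimulus. Primary microglia were grown from the cortices of Wistar rats at postnatal day 1, shaken off mixed cultures and purified with magnetic beads against CD11b/c. All 6 RNA-seq libraries came from cells given 100 ng/ml lipopolysaccharide (LPS, a component of the bacterial wall). In 3 of them the solvent DMSO was added (LPS + DMSO) and in the other 3 siponimod at 50 µM (LPS + Siponimod), and each carried a replicate number from 1 to 3. Unstimulated cells and cells given siponimod alone were not analysed here, so every difference is one between LPS-stimulated cultures. Cultures were stimulated for 1 or 3 days, and which of these applies to the libraries is not stated clearly. The LPS + DMSO libraries held 39484979, 38301365 and 38080379 counts and the LPS + Siponimod libraries 46643859, 43336006 and 38857441 counts, for replicates 1, 2 and 3 in each case.

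In the respiratory chain, complex II (succinate dehydrogenase) passes electrons from succinate to ubiquinone, complex III (the cytochrome bc1 complex) passes them on to cytochrome c, and complex IV (cytochrome c oxidase) hands them to oxygen. Complexes III and IV pump protons as they do so, and complex V (ATP synthase) uses the returning protons to make ATP. The catalytic core of complex IV, cytochrome b of complex III and part of the proton channel of complex V are encoded in mitochondrial DNA, which is transcribed as long precursors by its own polymerase. All remaining subunits, and the whole of complex II, are encoded in the nucleus. Macrophages and microglia exposed to LPS are known for a shift of their energy metabolism from respiration towards glycolysis.

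Many of the subunit genes were lower with siponimod and none was higher, and most of the mitochondrially encoded ones differed more than any nuclear-encoded one. A gene was called lower or higher where it had an adjusted p of at most 0.05 in edgeR's quasi-likelihood test (given as the edgeR adjusted p), adjusted by Benjamini-Hochberg over all 11977 genes tested, and a fold change (FC) of at least 1.5. Of the 42 members that had enough counts to be tested, 21 were called lower and 0 higher. Over all tested genes 11.7% were called lower and 13.6% higher. With 1 library left out, 9 (without LPS + DMSO replicate 2) to 20 (without LPS + Siponimod replicate 2) members were called lower. In those fits 182 of 12613 and 1462 of 12612 genes tested were called lower. The log2 FC was negative in 40 of the 42, against 51.2% of all genes tested, and its median was -0.58 over the members and -0.02 over all genes. The same median within replicate pairs 1, 2 and 3 was -0.47, -0.53 and -0.68, and 37 members were lower in all 3 pairs, against 35.4% of all genes tested. In 34 members every LPS + Siponimod library lay below every LPS + DMSO library, which held for 24% of all genes tested. In bulk libraries such as these, fewer cells of a type and less RNA per cell cannot be told apart.

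All 6 mitochondrially encoded members were called lower, with a median log2 FC of -2.75, and 15 of the 36 nuclear-encoded members tested, with a median of -0.43. By complex and among nuclear-encoded members alone, 0 of 4 were called lower in complex II, 3 of 8 in complex III, 3 of 10 in complex IV and 9 of 14 in complex V. The medians were -0.26, -0.34, -0.31 and -0.64 in that order. At an adjusted p of at most 0.05 with no condition on the fold change, 19 nuclear-encoded members were lower, 12 of them in complex V and 1 in complex II, while 13.2% of all genes passed in that direction and 28.6% in either. The plot of log2 FC by complex shows every tested member.

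**Figure D1:**
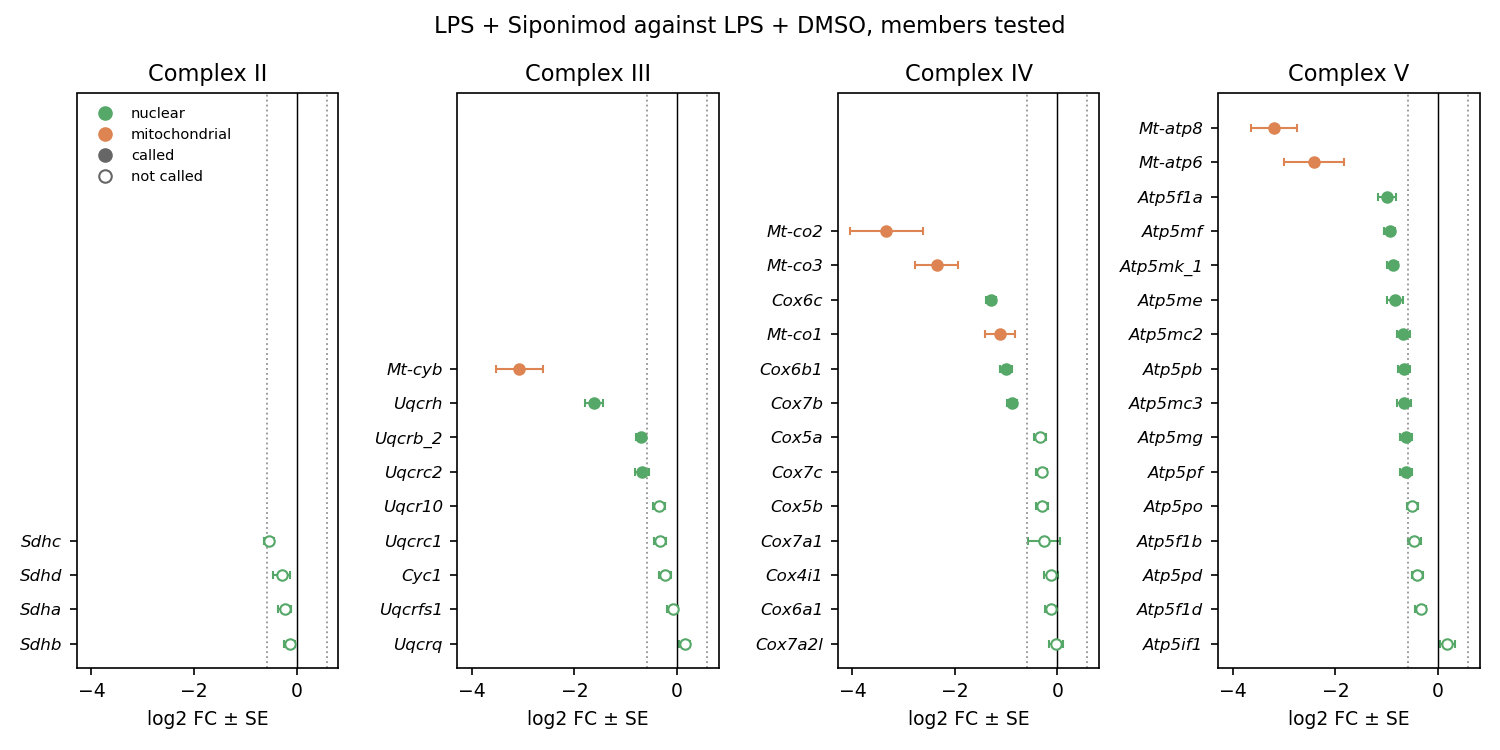
Log2 FC of LPS + Siponimod against LPS + DMSO (x axis) of the 42 tested subunit genes, 1 panel per complex, with standard errors as bars; filled points were called, open points were not, and dotted lines mark a fold change of 1.5. The mitochondrially encoded genes (orange) reach -3.34, while nuclear-encoded genes (green) lie between -1.62 and 0.18.

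Nuclear genes of the respiratory chain are known for promoters with sites of the transcription factors NRF1, GABPA (a factor of the ETS family) and YY1. RefSeq promoters on the GRCr8 assembly, 250 bases before and 50 after the annotated start, matched 30 of the 36 tested nuclear-encoded members by symbol. Exact letters were searched on both strands: the palindrome known as the NRF1 core (the first capitals in the Atp5me window), CCGGAAG for the ETS core and AAGATGGC for the YY1 core. The NRF1 letters stood in 3 of the 30 promoters (10.0%), the ETS letters in 11 (36.7%) and the YY1 letters in 6 (20.0%), against 0.852%, 8.75% and 3.17% of all 33469 promoters of that length. Among the 12 matched members called lower, 2, 6 and 3 promoters held them, and among the 18 that were not called, 1, 5 and 3. The 120 bases before the start are shown for 4 members chosen after their values were seen, namely Uqcrh, the nuclear member with the most negative log2 FC, Atp5me and Atp5pf, also called lower, and Uqcrq, whose log2 FC was positive. Capitals mark the searched letters or their reverse complement, and none of the marked runs overlap. The windows lie at chr5:134790883-134791002 on the minus strand (Uqcrh), chr14:1464740-1464859 on the plus strand (Atp5me), chr11:37375102-37375221 on the minus strand (Atp5pf) and chr10:38089979-38090098 on the minus strand (Uqcrq), and are written 5′ to 3′ along the gene.
Uqcrh: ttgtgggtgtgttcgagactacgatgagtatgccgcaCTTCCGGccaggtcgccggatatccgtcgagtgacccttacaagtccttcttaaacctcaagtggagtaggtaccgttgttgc
Atp5me: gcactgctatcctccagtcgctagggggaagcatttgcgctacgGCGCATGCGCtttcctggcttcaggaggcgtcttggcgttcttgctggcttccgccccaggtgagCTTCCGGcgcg
Atp5pf: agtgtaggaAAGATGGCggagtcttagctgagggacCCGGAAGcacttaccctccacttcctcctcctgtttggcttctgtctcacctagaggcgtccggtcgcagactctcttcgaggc
Uqcrq: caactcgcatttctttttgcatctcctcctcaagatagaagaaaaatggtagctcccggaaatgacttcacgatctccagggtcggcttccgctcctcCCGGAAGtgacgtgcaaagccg
These 4 do not stand for the 30 matched promoters, of which 11 held the ETS letters. Atp5if1, the other member with a positive log2 FC, and Cox6b1 and Cox7b, both called lower, held none of the searched letters. In the windows shown, the ETS letters stand in all 4, Uqcrq included, Atp5me adds the NRF1 letters and Atp5pf the YY1 letters. Such a match describes the sequence and shows no binding, and the tables of counts were made on another assembly (mRatBN7.2), whose coordinates are not used here.

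The mitochondrially encoded members are the catalytic subunits of complex IV (Mt-co1, Mt-co2 and Mt-co3), cytochrome b of complex III (Mt-cyb) and the membrane subunits a and A6L of complex V (Mt-atp6 and Mt-atp8). Values are counts scaled by library size and edgeR's TMM factor (CPM) and are given for replicates 1, 2 and 3. Mt-cyb was at 1336, 1223 and 1076 CPM with LPS + DMSO and at 60.7, 184.5 and 185.2 CPM with LPS + Siponimod. Its mean fell from 1212 ± 130.1 to 143 ± 71.7 CPM (SD, n = 3 each), 8.45-fold lower (log2 FC -3.08 ± 0.46 SE, edgeR adjusted p = 0.00932). The groups lay far apart, and LPS + Siponimod replicate 1 was the lowest library. Mt-atp8 was at 78.3, 66.0 and 109.9 CPM against 4.24, 10.5 and 12.8 CPM, and its mean fell from 84.7 ± 22.7 to 9.19 ± 4.44 CPM (log2 FC -3.21 ± 0.45 SE, edgeR adjusted p = 0.00824). Mt-atp6 overlaps Mt-atp8 on the mitochondrial genome, so that reads from the overlap may have been split between them. Mt-atp6 was at 473, 392 and 706 CPM against 37.0, 79.1 and 177.6 CPM (log2 FC -2.42 ± 0.59 SE, edgeR adjusted p = 0.0293).

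Among the complex IV genes of the mitochondrial genome the differences were of unequal size. Mt-co2 was at 666, 613 and 933 CPM with LPS + DMSO and at 21.9, 49.4 and 147 CPM with LPS + Siponimod. Its mean fell from 737 ± 171 to 72.8 ± 65.8 CPM, 10.1-fold lower (log2 FC -3.34 ± 0.71 SE, edgeR adjusted p = 0.0211). Mt-co3 was at 1238, 1034 and 1109 CPM against 109.9, 210.5 and 339.8 CPM, 5.12-fold lower (log2 FC -2.36 ± 0.41 SE, edgeR adjusted p = 0.0131). Both sets of libraries were well apart, with LPS + Siponimod replicate 1 the lowest of the 3 in each gene. Mt-co1, which encodes the subunit that holds the site of oxygen reduction, was at 9882, 7877 and 6951 CPM against 2704, 4746 and 3895 CPM. Its mean fell from 8237 ± 1498 to 3782 ± 1025 CPM, 2.18-fold lower (log2 FC -1.12 ± 0.29 SE, edgeR adjusted p = 0.0351). This was the least negative log2 FC of the 6, and it lay inside the range of the nuclear-encoded members.

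All 6 kept a negative log2 FC when any 1 library was left out. The size moved most without LPS + Siponimod replicate 3, where Mt-co2 had a log2 FC of -4.36 and Mt-atp6 one of -3.17. Without LPS + DMSO replicate 2 only Mt-cyb and Mt-atp8 were called, and without LPS + DMSO replicate 1 only 3 of the 6. Over all genes, 182 of 12613 and 644 of 12562 tested were called lower in those fits. The difference also varied between pairs, with medians of -3.93, -2.48 and -2.26 on the log2 scale in pairs 1, 2 and 3. Reads from mitochondrial genes can match nuclear copies of the mitochondrial genome, and how such reads were counted is not given in the sources used here. The libraries were made with a capture of polyadenylated RNA, so the counts follow mitochondrial transcripts that carried such a tail.

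**Figure D2:**
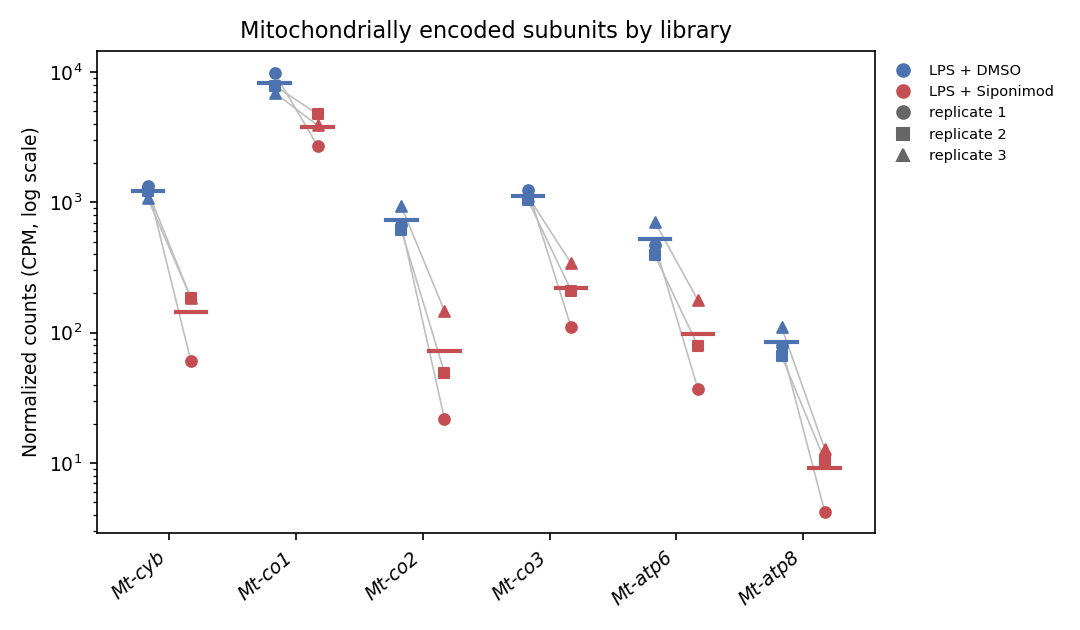
Normalized counts (CPM, log scale, y axis) of the 6 mitochondrially encoded members in each library; points are libraries, horizontal bars are group means and grey lines join libraries with the same replicate number. In each gene the 3 LPS + Siponimod libraries lie below the 3 LPS + DMSO libraries, and LPS + Siponimod replicate 1 is the lowest.

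As a share of all counts in a library, the mitochondrially encoded members took 1.28%, 1.13% and 1.06% with LPS + DMSO and 0.293%, 0.544% and 0.502% with LPS + Siponimod. The exact (Clopper-Pearson) 95% binomial interval of the lowest share ran from 0.291% to 0.294%, and such intervals cover counting error only. The groups did not overlap, and the mean share was 1.16 ± 0.114% against 0.446 ± 0.135% (SD, n = 3 each), 2.59-fold lower. The nuclear-encoded members took 0.380%, 0.434% and 0.416% against 0.304%, 0.334% and 0.316%, with means of 0.410 ± 0.0275% and 0.318 ± 0.0154%, 1.29-fold lower. The mitochondrially encoded members had 337, 259 and 255 counts per 100 counts of nuclear-encoded members with LPS + DMSO, and 96.3, 163 and 159 with LPS + Siponimod. Every LPS + Siponimod library thus had fewer mitochondrially encoded counts per nuclear-encoded count than any LPS + DMSO library. These counts are not divided by transcript length and do not compare the amounts of the transcripts of different genes.

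Mt-co1 carried most of the mitochondrially encoded counts, and its part was larger with siponimod. It made up 72.3%, 70.3% and 63.9% of them with LPS + DMSO and 92.0%, 89.9% and 81.9% with LPS + Siponimod. Mean values were 68.8 ± 4.40% and 87.9 ± 5.36% (SD, n = 3 each), and the groups did not overlap. With Mt-co1 left out, the remaining 5 genes had 93.5, 77.0 and 92.2 counts per 100 nuclear-encoded counts with LPS + DMSO and 7.66, 16.5 and 28.8 with LPS + Siponimod, 4.96-fold lower in the mean.

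**Figure D3:**
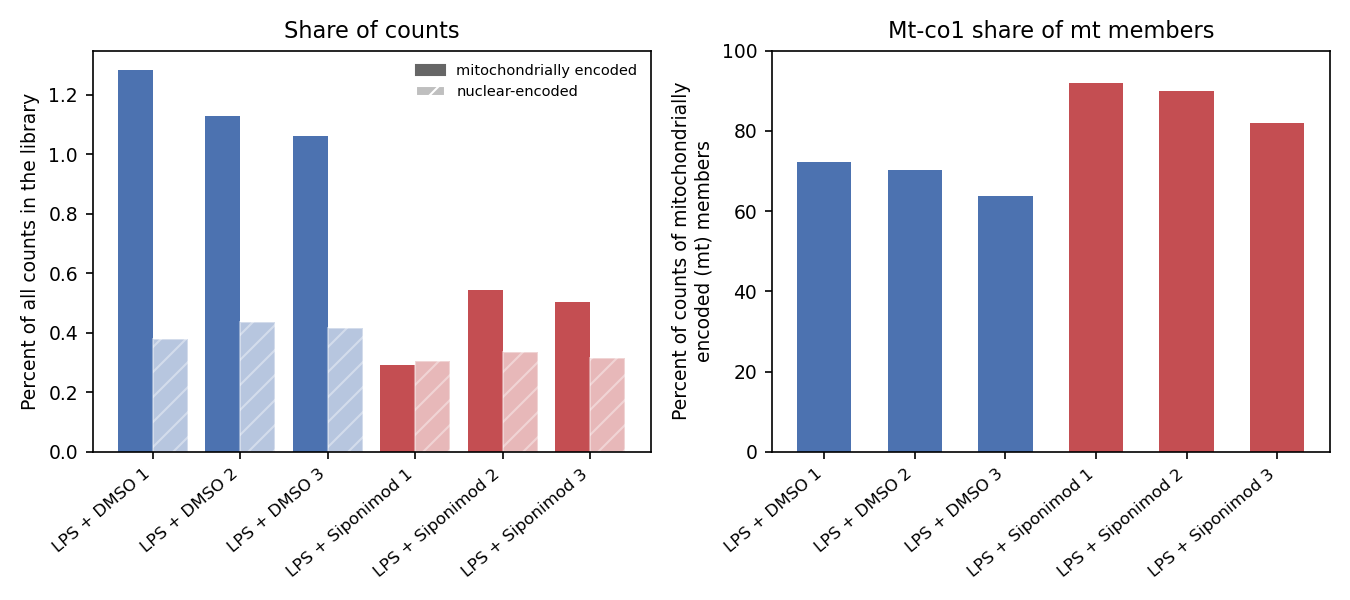
Left, percent of all counts in each library (y axis) on the 6 mitochondrially encoded members (solid) and on the nuclear-encoded members (hatched); right, Mt-co1 as a percent of the counts of the mitochondrially encoded members. Blue bars are LPS + DMSO and red bars LPS + Siponimod libraries, and the mitochondrially encoded share is at least 1.06% in the blue and at most 0.544% in the red bars, while the Mt-co1 share is at most 72.3% and at least 81.9%.

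Complex II, which has no mitochondrially encoded subunit, had no member called. Sdhc, one of the 2 membrane anchors of the complex, was at 84.7, 90.9 and 89.8 CPM with LPS + DMSO and at 61.3, 64.5 and 56.9 CPM with LPS + Siponimod (log2 FC -0.54 ± 0.11 SE, edgeR adjusted p = 0.0171). The groups of Sdhc did not overlap, but the difference stayed under a fold change of 1.5, and without LPS + Siponimod replicate 2 it passed (log2 FC -0.59). Sdhd, the other anchor, was at 94.0, 93.6 and 69.2 CPM against 71.8, 75.1 and 62.9 CPM (log2 FC -0.29, edgeR adjusted p = 0.207), with LPS + DMSO replicate 3 inside the range of the other group. Sdha, the flavoprotein that oxidizes succinate, had a log2 FC of -0.23 (edgeR adjusted p = 0.203) and overlapping groups. Sdhb, the iron-sulfur subunit, had a log2 FC of -0.13 (edgeR adjusted p = 0.369). Summed over the complex, the level was 377, 379 and 333 CPM with LPS + DMSO and 307, 308 and 278 CPM with LPS + Siponimod.

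In complex III, Uqcrh, Uqcrb_2 and Uqcrc2 were called lower and the other nuclear-encoded members were not. Uqcrh, the acidic hinge protein beside cytochrome c1, was at 51.2, 55.8 and 65.2 CPM with LPS + DMSO and at 14.9, 19.8 and 21.5 CPM with LPS + Siponimod. Its mean fell from 57.4 ± 7.15 to 18.7 ± 3.42 CPM, 3.07-fold lower (log2 FC -1.62 ± 0.18 SE, edgeR adjusted p = 0.00636). No library of one group came near the other group, and it was the most negative log2 FC of the nuclear-encoded members. Uqcrb_2, the counted copy of the gene of a small matrix-side subunit, was at 67.3, 68.1 and 66.1 CPM against 40.01, 43.9 and 39.3 CPM (log2 FC -0.71 ± 0.10 SE, edgeR adjusted p = 0.00834), while the other copy, Uqcrb_1, had at most 1 count. Uqcrc2, a core protein, had a log2 FC of -0.68 (edgeR adjusted p = 0.0201), and its partner Uqcrc1 one of -0.34 (edgeR adjusted p = 0.0745) with groups that did not overlap.

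The subunits of complex III that carry electrons differed between genomes. Against the 8.45-fold of Mt-cyb, Cyc1 (cytochrome c1) had a log2 FC of -0.23 (edgeR adjusted p = 0.154) and Uqcrfs1, the Rieske iron-sulfur protein, one of -0.08 (edgeR adjusted p = 0.588). Uqcrfs1 libraries overlapped between the groups. Uqcrq, a small subunit, was the nuclear-encoded member of complex III with a positive log2 FC. Its levels were 54.1, 49.9 and 55.9 CPM with LPS + DMSO and 63.1, 56.9 and 57.7 CPM with LPS + Siponimod (log2 FC 0.15 ± 0.11 SE, edgeR adjusted p = 0.304). Its groups did not overlap, but the difference did not pass the test. Over all genes tested, 25.3% had groups that did not overlap with the LPS + Siponimod libraries higher.

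In complex IV, 3 small nuclear-encoded subunits were called lower. Cox6c was at 84.8, 88.9 and 91.5 CPM with LPS + DMSO and at 34.3, 38.5 and 35.3 CPM with LPS + Siponimod. Its mean fell from 88.4 ± 3.38 to 36.0 ± 2.2 CPM, 2.45-fold lower (log2 FC -1.29 ± 0.10 SE, edgeR adjusted p = 0.00332). The spread within each group was small against that gap, and the 3 pairs differed by -1.31, -1.21 and -1.37 on the log2 scale. Cox6b1, on the intermembrane side of the complex, was at 109.7, 113 and 118 CPM against 53.8, 62.4 and 52.7 CPM (log2 FC -1.01 ± 0.12 SE, edgeR adjusted p = 0.00655). Cox7b, a subunit with a single membrane span, was at 51.9, 51.6 and 49.6 CPM against 26.4, 29.8 and 26.6 CPM (log2 FC -0.89 ± 0.10 SE, edgeR adjusted p = 0.00655). In these genes too the groups lay apart.

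The other tested nuclear-encoded members of complex IV did not pass. Cox4i1, the common form of the regulatory subunit 4, was at 209, 229 and 213 CPM with LPS + DMSO and at 199, 219 and 176 CPM with LPS + Siponimod (log2 FC -0.13, edgeR adjusted p = 0.490), with overlapping groups. Cox5a, Cox7c and Cox5b had log2 FCs of -0.34, -0.31 and -0.30 with groups that did not overlap, and the smallest edgeR adjusted p among them was 0.0601. Cox6a1, the form of subunit 6a outside heart and muscle, had a log2 FC of -0.13 (edgeR adjusted p = 0.402). Cox7a2l, which takes part in joining complexes III and IV, had a log2 FC of -0.03 (edgeR adjusted p = 0.896), and its sign depended on the scaling, with 0.05 when library sizes alone were used.

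Isoforms known from particular tissues were at low counts. Cox7a1, the heart and muscle form of subunit 7a, had 43, 67 and 56 counts with LPS + DMSO and 56, 46 and 59 counts with LPS + Siponimod (log2 FC -0.26, edgeR adjusted p = 0.543). Cox6a2, the heart and muscle form of subunit 6a, had 0, 0 and 2 counts with LPS + DMSO and 5, 13 and 13 counts with LPS + Siponimod, a ratio of 13.9 per library size with a 95% counting interval from 3.55 to 120.2. That interval covers counting error only, and the gene was not tested. Cox4i2, the second form of subunit 4, had between 2 and 11 counts in each library and was not tested. A further 7 members were not tested. Of these, Cox6b1-ps1, Cox6c-ps1, Cox7a2l2 and Cox7b2 were at 0 counts in all 6 libraries, and Atp5mk_2, Uqcrb_1 and Cox8c had at most 1 count.

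In complex V 9 of 14 nuclear-encoded members were called lower with all 6 libraries. Without LPS + DMSO replicate 2, LPS + Siponimod replicate 1 or LPS + Siponimod replicate 3 only Atp5mf and Atp5mk_1 were, 2 of 14, while complex IV kept its 3 nuclear-encoded calls. Over all genes, 182 of 12613, 191 of 12583 and 273 of 12178 tested were called lower in these fits, against 1403 of 11977 with all libraries. In the catalytic head (F1), Atp5f1a (subunit alpha) was at 355, 423 and 340 CPM with LPS + DMSO and at 159, 219.8 and 184 CPM with LPS + Siponimod. Its mean fell from 373 ± 44.3 to 188 ± 30.7 CPM, 1.99-fold lower (log2 FC -0.99 ± 0.18 SE, edgeR adjusted p = 0.0136). Atp5f1b (subunit beta, which carries the catalytic sites) was at 488, 542 and 556 CPM against 375, 395 and 383 CPM, and with a log2 FC of -0.46 ± 0.13 SE (edgeR adjusted p = 0.0449) it stayed under a fold change of 1.5. The groups of neither gene overlapped. Subunits alpha and beta are present in equal number in the head. Atp5f1d, the delta subunit of the central stalk, had a log2 FC of -0.34 (edgeR adjusted p = 0.0670).

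All 6 tested nuclear genes of the membrane part of complex V were called lower with all libraries, against 11.7% of all genes tested, and 2 of them (Atp5mf and Atp5mk_1) when any 1 of the libraries just named was left out. Atp5mf (subunit f) was at 65.8, 75.5 and 69.3 CPM with LPS + DMSO and at 34.5, 39.1 and 36.1 CPM with LPS + Siponimod (log2 FC -0.94 ± 0.11 SE, edgeR adjusted p = 0.00655). Atp5mk_1, the counted copy of the gene of subunit k, was at 44.4, 41.6 and 42.5 CPM against 22.7, 24.2 and 22.7 CPM (log2 FC -0.88 ± 0.10 SE, edgeR adjusted p = 0.00640). The libraries of each group were close together in both genes. Atp5me and Atp5mg (subunits e and g) were called with log2 FCs of -0.83 and -0.62. Atp5mc2 and Atp5mc3, which encode the same mature subunit c of the rotating ring and differ mainly in the leader that is cut off, were called with log2 FCs of -0.68 and -0.66. As near copies they may share reads, and how reads with several matches were counted is not given.

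In the peripheral stalk, which holds the head still, Atp5pb was at 206, 219 and 211 CPM with LPS + DMSO and at 128, 143 and 129.9 CPM with LPS + Siponimod (log2 FC -0.67 ± 0.11 SE, edgeR adjusted p = 0.0125). Atp5pf was called with a log2 FC of -0.62, but with library sizes alone (-0.55) it fell under a fold change of 1.5. Atp5po and Atp5pd had edgeR adjusted p-values of 0.0251 and 0.0304 and log2 FCs of -0.50 and -0.40, under a fold change of 1.5. Atp5if1, the inhibitor that stops ATP synthase from running backwards, was the exception in complex V. It was at 168, 127 and 142 CPM with LPS + DMSO and at 175, 159.6 and 161 CPM with LPS + Siponimod (log2 FC 0.18 ± 0.14 SE, edgeR adjusted p = 0.358), with LPS + DMSO replicate 1 above 2 libraries of the other group.

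**Figure D4:**
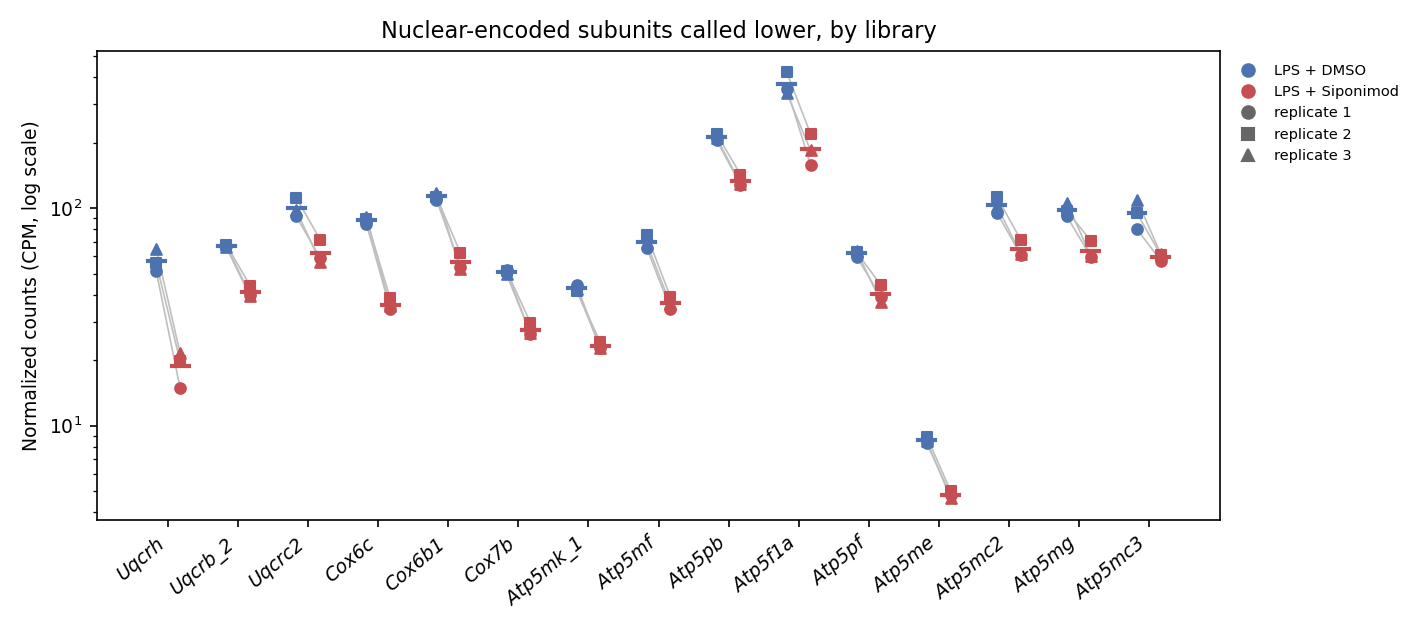
Normalized counts (CPM, log scale, y axis) of the 15 nuclear-encoded members called lower, ordered by complex; points are libraries, horizontal bars group means and grey lines join the same replicate number. Groups do not overlap in any of the 15 genes, and Uqcrh shows the largest gap, from 57.4 to 18.7 CPM in the mean.

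Over all 45 nuclear-encoded members the summed level was 4053, 4319 and 4267 CPM with LPS + DMSO and 3050.4, 3246 and 2990.2 CPM with LPS + Siponimod, with means of 4213 ± 141 and 3096 ± 134 CPM (SD, n = 3 each). The calls of 9 members were made under every alternative tried, each library left out in turn included. These were Uqcrh, Uqcrb_2, Cox6c, Cox6b1, Cox7b, Atp5mk_1, Atp5mf, Mt-cyb and Mt-atp8. The number of nuclear-encoded members called fell from 15 to 7 without LPS + DMSO replicate 2, without LPS + Siponimod replicate 1 or without LPS + Siponimod replicate 3. Over all genes, those called lower fell from 1403 of 11977 tested to 182 of 12613, 191 of 12583 and 273 of 12178 in that order. Gapdh, the reference gene of the study's PCR, was at 3955 ± 560.4 CPM with LPS + DMSO and 2791 ± 119 CPM with LPS + Siponimod (log2 FC -0.50 ± 0.20 SE, edgeR adjusted p = 0.0990).

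Complex I, the entry of electrons from NADH, was compared in the same way. Among its nuclear-encoded genes, 17 of 38 tested were called lower and 0 higher, with a median log2 FC of -0.52, and the 17 include Ndufv3-ps1, which is named as a pseudogene, and Ndufa4. With the replicate block 16 were lower, against 16.4% of all genes tested. Ndufb3, a small membrane subunit, had a log2 FC of -0.85 (edgeR adjusted p = 0.00703). Ndufa4, named for complex I but now known as a subunit of complex IV, had 2263, 2593 and 2839 counts with LPS + DMSO and 1562, 1708 and 1534 counts with LPS + Siponimod (log2 FC -0.91, edgeR adjusted p = 0.00825). Of the 7 mitochondrially encoded genes of complex I, 6 were called lower, with a median of -2.80. Mt-nd4l and Mt-nd4, which overlap each other, had log2 FCs of -3.88 and -3.41 (edgeR adjusted p = 0.00791 and 0.00989). Mt-nd6, the one encoded on the other strand, had a log2 FC of -1.46 (edgeR adjusted p = 0.0595), and with the replicate number as a block it passed (adjusted p = 0.0400).

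Genes that build, feed or regulate the complexes had calls in both directions, to be read against the 11.7% lower and 13.6% higher of all genes tested. Of 26 assembly factors, 2 were lower and 1 higher, with a median log2 FC of -0.34. With the replicate block 4 were lower and 1 higher, where 16.4% of all genes tested were lower and 17.7% higher. Uqcc3, needed to assemble cytochrome b into complex III, had a log2 FC of -1.40 (edgeR adjusted p = 0.0202), Cmc2, of complex IV assembly, one of -0.93 (0.0253) and Bcs1l, which inserts the Rieske protein, one of 1.17 (0.0247). Of 20 electron carriers and donors, 3 were lower and 2 higher (median -0.44), and with the replicate block 4 were lower and 3 higher. Etfb, of the electron transfer flavoprotein, was at 20.4 ± 4.42 CPM with LPS + DMSO and 6.21 ± 1.29 CPM with LPS + Siponimod (log2 FC -1.72, edgeR adjusted p = 0.00829). Sqor, which passes electrons from sulfide to ubiquinone, moved the other way, from 2.44 ± 0.605 to 37.3 ± 14.8 CPM (log2 FC 3.94, edgeR adjusted p = 0.00457). Coq5, of ubiquinone synthesis, was lower with a log2 FC of -0.61 and Coq10b, a ubiquinone-binding protein, higher with one of 1.34.

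The citric acid cycle list, which holds pyruvate dehydrogenase too, had 3 of 16 genes lower and 1 higher (median log2 FC -0.34). Suclg2, a subunit of succinyl-CoA ligase, and Fh, which converts the fumarate made by complex II, had log2 FCs of -0.97 and -1.55 (edgeR adjusted p = 0.00980 and 0.0189). Pdha1, of pyruvate dehydrogenase, rose from 80.6 ± 14.0 to 766 ± 189 CPM (log2 FC 3.25, edgeR adjusted p = 0.00321). Among 13 regulators tested, 1 was lower and 1 higher, and the median was 0.19. With the replicate block 2 were lower and 1 higher, against 16.4% and 17.7% of all genes tested. Slirp, which with Lrpprc stabilizes mitochondrial mRNAs, was lower (log2 FC -0.91, edgeR adjusted p = 0.0134) and Gabpb1, a partner of GABPA, higher (log2 FC 1.12, edgeR adjusted p = 0.0248). Tfam, which packages mitochondrial DNA and acts in its transcription, had a log2 FC of 0.19 (edgeR adjusted p = 0.404), Lrpprc one of 0.05 (0.833) and Nrf1 one of 0.25 (0.152).

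Genes of the outer membrane, of protein import and of the inner membrane scaffold had 0 of 17 lower and 1 higher, the import chaperone Hspa9 (log2 FC 1.32, edgeR adjusted p = 0.00960), with a median of -0.10. Of the 3 tested carriers of phosphate and nucleotides and uncoupling proteins, the adenine nucleotide carrier Slc25a4 was lower (log2 FC -1.29, edgeR adjusted p = 0.0356). With the replicate block all 3 were lower, against 16.4% of all genes tested. The plot of calls by list sets the shares of the related lists, those of the carriers left out, beside those of the subunits.

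**Figure D5:**
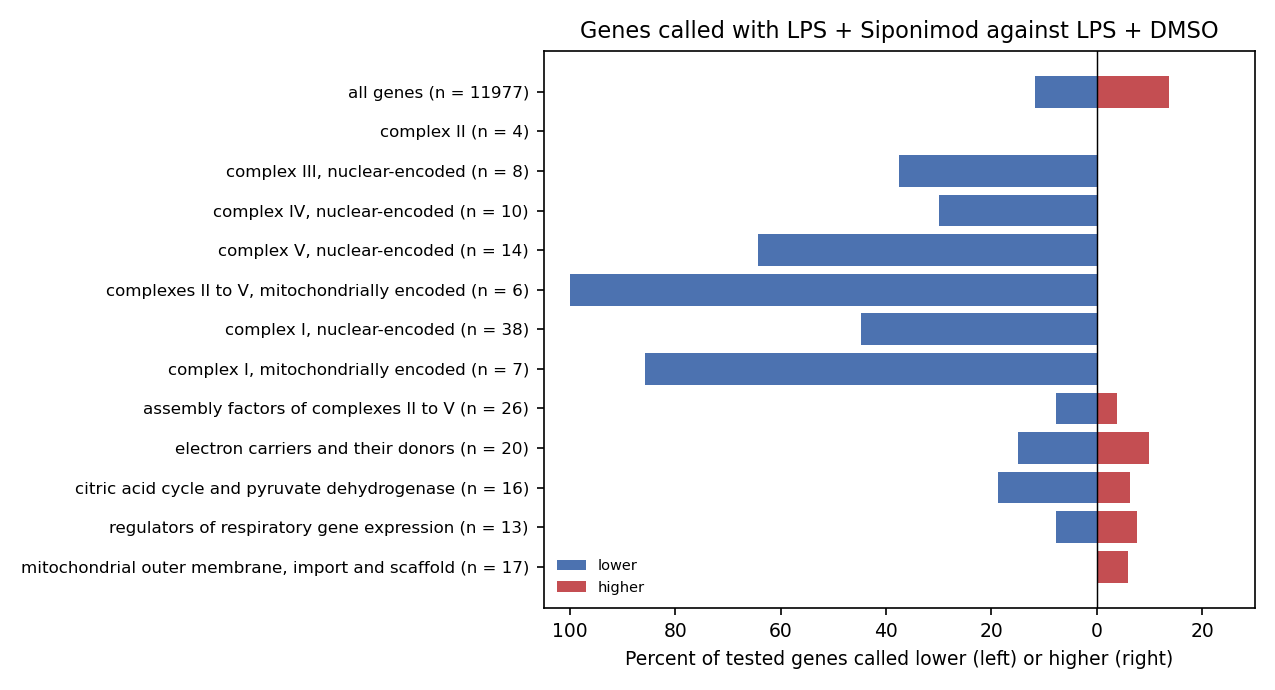
Percent of tested genes called lower (blue, to the left) or higher (red, to the right) in LPS + Siponimod against LPS + DMSO, for all genes, the subunits by complex and genome, and related gene lists, with the number tested in brackets. The subunit lists, complex II apart, reach 30% to 100% lower with none higher, against 11.7% lower and 13.6% higher over all genes.

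Markers of the labelled cell type and of other cells were measured in the same libraries. All 13 microglial markers were tested, 3 were called lower (Itgam with a log2 FC of -0.87, Aif1 with -1.88 and Cx3cr1 with -3.65) and 0 higher, and with the replicate block 8 were lower and 1 higher, where 16.4% of all genes tested were lower and 17.7% higher. Their summed level was 10040.0, 8201 and 5461 CPM with LPS + DMSO and 3390.1, 4878 and 2561 CPM with LPS + Siponimod, with Csf1r the most abundant. Cx3cr1, a receptor typical of resting microglia, was low throughout, at 2.68 ± 2.27 CPM with LPS + DMSO and 0.211 ± 0.225 CPM with LPS + Siponimod. Its call depends on a filter that it passed only through the LPS + DMSO group, where it is high. It had 69, 202 and 35 counts there and 3, 21 and 4 with LPS + Siponimod. The microglial sum thus moved in the same direction as the subunits, and its part in their difference was not tested.

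Markers of other cells had lower summed levels. The 7 astrocyte markers summed to 48.4, 24.2 and 24.9 CPM with LPS + DMSO and 29.3, 28.8 and 59.5 CPM with LPS + Siponimod, with Slc1a3 the most abundant, and Aldoc was called lower (log2 FC -1.12). The 9 markers of the oligodendrocyte lineage summed to 5.37, 5.37 and 36.0 CPM against 11.4, 10.3 and 22.6 CPM, led by Mbp, which was called higher (log2 FC 1.74). The 7 neuronal markers summed to 1.70, 1.06 and 11.4 CPM against 6.39, 9.28 and 17.1 CPM, led by Tubb3. Tubb3 was called higher with the replicate block only. Snap25 was called higher in the main test, but it passed the filter only through the group where it is high. It had 0, 1 and 1 counts with LPS + DMSO and 94, 153 and 81 with LPS + Siponimod. LPS + DMSO replicate 3 and LPS + Siponimod replicate 3 had the highest sums of both of these lists. The 8 markers of fibroblasts and vessels summed to 159, 205 and 85.4 CPM against 47.7, 82.0 and 32.4 CPM, led by Cdh5 (log2 FC -1.36, edgeR adjusted p = 0.0684), with Rgs5 at 0 in all libraries. With the replicate block, Cdh5 and Pecam1 were called lower. Dcn was called higher with and without the block, but it passed the filter only through the group where it is high. It had 3, 0 and 4 counts with LPS + DMSO and 456, 49 and 178 with LPS + Siponimod. The T cell markers Cd3e and Cd3g were at 0 in all libraries. No part of these markers in the subunits' difference was tested. LPS + DMSO replicate 3 also correlated less with its group (0.935 and 0.945 over log CPM) than replicates 1 and 2 did with each other (0.983). Without that library 18 members were called lower, where 1772 of 12242 genes tested were.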

How the data were processed

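Total RNA of cultured rat microglia was sequenced after mRNA capture. Per the labels and the study's methods, the authors demultiplexed the reads with bcl2fastq 2.20.0.422, trimmed them and mapped them to the rat genome mRatBN7.2 in CLC Genomics Workbench. They deposited 1 table of total counts per gene for each of the 6 libraries, and these deposited counts are the only unit used. Strand, introns and reads with several matches are not described, so that overlapping genes and near copies are uncertain. In 1 table a row without a gene name was left out.

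The tables were joined by gene name and filtered with edgeR 4.0.16 (filterByExpr, minimum count 10), which left 11977 genes. The quasi-likelihood test with TMM factors and condition as the only term was run in R 4.3.3, with Benjamini-Hochberg adjustment over all tested genes. The study's methods call the replicates biological. The p-values of the main fit weigh the difference between groups against the spread within groups and take no account of replicate numbers. CPM values use filtered library sizes and TMM factors. Standard errors were derived from the log2 FC and its F statistic, and pair differences from log2 CPM with a prior count of 2. Checked on simulated data, the test missed most of the smaller and some of the larger changes, so that a gene without a call is not shown to be unchanged.

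Same-numbered libraries deviated together from their group means (correlations 0.42, 0.545 and 0.611, against -0.534 to 0.0856 between different numbers), so they were treated as pairs in an alternative with the replicate number as a block. Other alternatives were RLE factors, library sizes alone, scaling without mitochondrial genes, DESeq2 1.42.0, limma-voom (limma 3.58.1), the likelihood ratio test, other filters, no fold threshold and each library left out.

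The members and gene lists were chosen with earlier results of these data known. Named were all mitochondrially encoded members, complex II, in complexes III to V the 4 lower and 2 higher nuclear members of smallest p, members with a positive log2 FC, tissue isoforms and, per other list, up to 2 called genes per direction. Any further member named with a value was chosen after its value was seen.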

Additional observations from a re-analysis of the deposited data

How the results depend on the processing

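Every called member kept a negative log2 FC under all alternatives, and 9 of 21 calls were also kept with any library left out. Leaving out 1 library in turn gave 651 to 3713 called genes in all (3036 with all libraries), 9 to 20 members (21), 7 to 16 nuclear-encoded (15), 2 to 5 mitochondrially encoded (6), 0 to 1 in complex II (0), 3 to 7 in complex IV (6) and 3 to 10 in complex V (11). The lowest member count came without LPS + DMSO replicate 2. These fits have fewer samples, which lowers power. With the replicate block, 4074 genes and 21 members (15 nuclear-encoded and 6 mitochondrially encoded) were called, and no member's call changed. With no fold threshold complex II had 1 call (Sdhc). With library sizes alone the median of the nuclear-encoded members was -0.35, and that of all genes 0.06. Cox7a2l (-0.03) turned positive there (0.047) and, with 1 library left out, ran from -0.13 to 0.049, positive without LPS + DMSO replicate 3 and without LPS + Siponimod replicate 3, and the cause was not tested. The other tools, scalings and filters gave 18 to 21 members, and the lack of a fold threshold 25. The 16 nuclear-encoded calls without LPS + Siponimod replicate 2 include Sdhc. The 7 calls in complex IV without LPS + DMSO replicate 3 include Cox6a2, which passed the filter there through the group where it is high, against LPS + DMSO libraries at 0 counts. A member without a call is not shown to be unchanged.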
